A study of Mus musculus with 8 samples.

Results

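The response of Ly6C+ classical monocytes to stroma that displays the Notch ligand DLL1 was measured by RNA sequencing in 4 of the 8 libraries of the series. Wild-type mouse bone marrow supplied the monocytes, which were sorted and then kept for 6 h with OP9 cells (2 libraries) or with OP9-DLL1 cells (2 libraries). OP9 is a bone marrow stromal line from mice that lack M-CSF, and OP9-DLL1 is the same line made to express DLL1. The other 4 libraries held common monocyte progenitors (cMoPs), the committed precursors of monocytes, from the same source and in the same 2 cocultures, with 2 libraries in each. They entered the fit, where they help to estimate the spread, and are compared with monocytes at the end. Members were chosen by their labels alone, and 13374 genes of 13388 in the table were tested. The design has no monocytes without stroma, so a difference here is one between ligand-bearing and plain stroma.

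Notch receptors are cut when a ligand on a neighbouring cell pulls on them. The freed intracellular part enters the nucleus, joins the DNA-binding protein RBPJ and switches on targets such as the Hes repressors. In the mouse, Notch signalling, and Notch2 above all, is known for driving classical Ly6C-high monocytes towards nonclassical Ly6C-low monocytes, which patrol the vessel wall and depend on the nuclear receptor Nr4a1. The title of the series names Bcl6, Irf2 and Notch2 as promoters of that step.

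All 12 listed monocyte markers were present in every library. Ly6c2, the surface antigen used to sort these cells, was at 872 and 1204 CPM on OP9 and 1135 and 1007 CPM on OP9-DLL1, and Ccr2, the receptor that lets classical monocytes leave the marrow, at 1743 and 1927 CPM on OP9 and 1415 and 1456 CPM on OP9-DLL1. Summed over the list, monocyte markers made up 46329 and 36660 CPM on OP9 and 36281 and 29816 CPM on OP9-DLL1. Most of that sum was Lyz2, at 38230 and 29410 CPM on OP9 and 28300 and 22580 CPM on OP9-DLL1. Its log2 fold change of -0.408 ± 0.164 had a limma-trend adjusted p of 0.185. CPM is the read count scaled to a fixed total, here by the authors' effective library size. Of 34 stromal markers 13 were in the table and summed to 142 and 128 CPM on OP9 and 96.5 and 90.7 CPM on OP9-DLL1. Most of that sum was Acta2, at 87 and 74.7 CPM on OP9 and 81.2 and 57.5 CPM on OP9-DLL1, while the collagen gene Col1a1 was at 1.43 and 1.84 CPM on OP9 and 0.0616 and 0.912 CPM on OP9-DLL1 and Cxcl12, the marrow's retention chemokine, at 6.3 and 5.97 CPM on OP9 and 0.0616 and 3.36 CPM on OP9-DLL1. Of these 13 markers 12 had a negative log2 fold change, with a median of -2.26, and OP9-DLL1 replicate 1 had the lowest value for most of them. The 2 platelet markers in the table, Pf4 and Ppbp, summed to 113 and 195 CPM on OP9 and 22.2 and 12.7 CPM on OP9-DLL1. The 11 macrophage markers summed to 763 and 517 CPM on OP9 and 427 and 405 CPM on OP9-DLL1, and 7 dendritic cell markers to 104, 107, 112 and 133 CPM in the same order of libraries. Depth was 47316323 and 54282613 reads on OP9 and 51237246 and 52302602 reads on OP9-DLL1. The OP9 libraries stood furthest apart of any group, with 1452 genes more than 2-fold apart, against 757 for the OP9-DLL1 libraries. In such bulk samples, fewer cells of a type and less RNA per cell cannot be told apart. Nothing in the labels ties the 2 libraries of a group to different mice or cultures. The p-values therefore rest on library-to-library spread that may be technical.

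On OP9-DLL1 450 genes were higher, 3.36% of those tested, and 405 were lower, 3.03%, by limma-trend at a Benjamini-Hochberg adjusted p under 0.05, which is what passing, rising and falling mean here. In each of these 855 genes both libraries of one group lay above both of the other. With 2 libraries a group this largely follows from passing, and its share among all genes tested was not counted. The rises were the larger, with a median of 2.10-fold against 1.78-fold for the falls, and 91 genes rose and 42 fell more than 4-fold. Calls were more frequent among abundant genes, at 2.18% in the lowest and 11.6% in the highest of 4 equal bins of monocyte level. Counts for the gene lists are set against 3.36% and 3.03% of all genes, whatever the level of their members. The lists were chosen with earlier results of these data known, so their counts are not independent evidence. Among 205 long intergenic RNAs 6 rose and 0 fell by this test, against 4.05% and 3.61% of protein-coding genes. The median log2 fold change of all genes tested was 0.01. When each library was centred on its median, 39.8% of calls were rises in place of 52.6%, and every log2 fold change was lower by 0.0798. The number of calls depended heavily on single libraries. That held for cMoP libraries too, which hold no monocyte values and enter only through the shared estimate of the spread. Without OP9-DLL1 replicate 1 155 genes were higher and 124 lower, without OP9-DLL1 replicate 2 87 and 77, and without OP9 replicate 2 1328 and 1160. Of the genes called with all libraries, 72 higher and 38 lower ones passed under every setting run, and all 855 kept their sign. Of 186 named genes that passed, 107 passed with only the 4 monocyte libraries and 85 without the mean-variance trend. Where a gene is said not to pass without a library, the bracket holds its highest limma-trend adjusted p with 1 library left out, and "to" gives its log2 fold change. Genes were named by a rule of size, and Ace, Aph1c, Calr, Ccl3, Ccr1, Cd300a, Cd300e, Cdk4, Cir1, Ctsd, Dok2, Fabp5, Gar1, Gngt2, Gpr35, Havcr2, Il10ra, Il18, Irf8, Itga1, Klf7, Lair1, Maf, Mcpt8, Mefv, Msr1, Myd88, Nip7, Nop58, Paox, Polr1b, Srm, Tgfb1, Treml4 and Tsr1 fall outside it and were chosen after their values were seen.

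**Figure D1:**
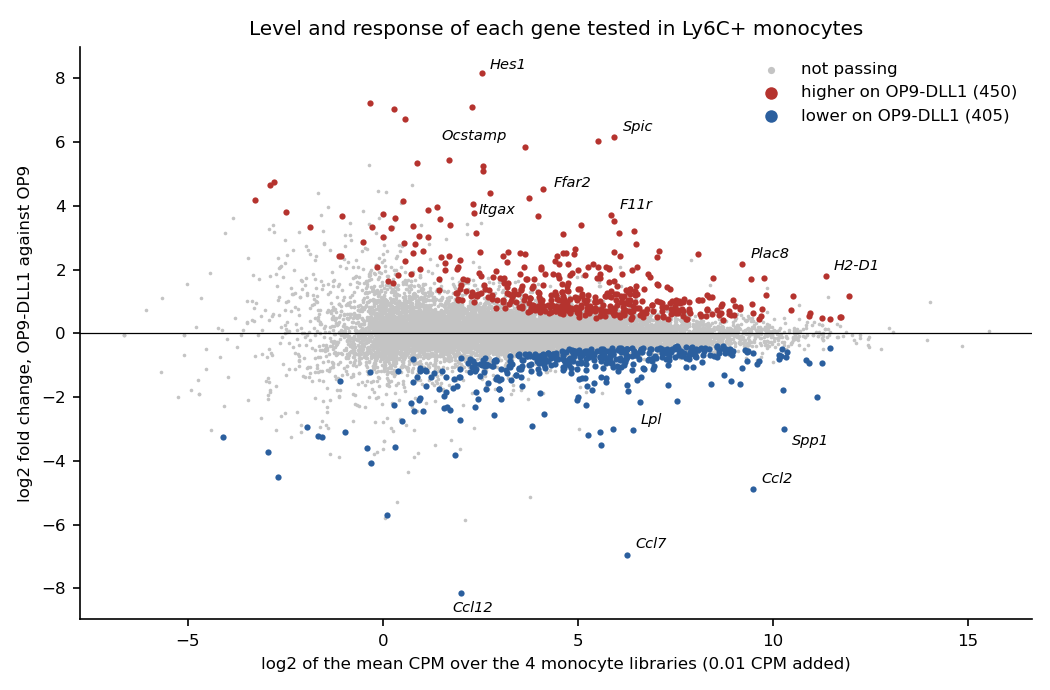
Each point is 1 of the 13374 genes tested, by its mean level over the 4 monocyte libraries (log2 CPM after adding 0.01 CPM) and its log2 fold change on OP9-DLL1 against OP9. The 450 genes that were higher reach 8.16 for Hes1, and the 405 that were lower reach -8.14 for Ccl12.

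Hes1, the repressor that is the classic direct target of Notch (chromosome 16, 30064384 to 30067796 on GRCm38), was almost silent on plain stroma. It was read at 0.0231 and 0.0372 CPM on OP9 and 11.7 and 11.3 CPM on OP9-DLL1, or 3 reads against 1151 over the groups, a ratio of 372 with a 95% counting interval of 127 to 1804. It had the largest log2 fold change of the genes named, 8.16 ± 0.58 (limma-trend adjusted p = 0.00024). Spic, an ETS family factor that marks red pulp macrophages (chromosome 10, 88674772 to 88685015), was at 1.41 and 2.03 CPM on OP9 and 124 and 116 CPM on OP9-DLL1 (log2 fold change 6.15 ± 0.32, limma-trend adjusted p = 4.8e-05). Ocstamp, a membrane protein needed for osteoclast fusion, was at 0.416 and 0.409 CPM on OP9 and 21.9 and 27.3 CPM on OP9-DLL1 (log2 fold change 5.85 ± 0.36, limma-trend adjusted p = 0.00011). Its OP9 libraries were both under 1 CPM and its OP9-DLL1 libraries both over 20 CPM. Cd22, an inhibitory sialic acid-binding lectin best known on B cells, was at 0.416 and 0.205 CPM on OP9 and 9.73 and 13.3 CPM on OP9-DLL1 (log2 fold change 5.24 ± 0.45, limma-trend adjusted p = 0.00058). Abcb1a, a drug efflux pump, was at 0.185 and 0.558 CPM on OP9 and 12 and 10.8 CPM on OP9-DLL1 (log2 fold change 5.10 ± 0.58, limma-trend adjusted p = 0.0019). Its near copy Abcb1b was at 4.46 and 4.43 CPM on OP9 and 9.59 and 9.12 CPM on OP9-DLL1. In cMoPs on OP9, Abcb1b was at 11.3 and 11 CPM and Abcb1a at 0.242 and 0.347 CPM. The 2 genes may share reads, which was not tested. The short-chain fatty acid receptor gene Ffar2 was at 0.67 and 2.53 CPM on OP9 and 20.1 and 45.7 CPM on OP9-DLL1 (log2 fold change 4.53 ± 0.55, limma-trend adjusted p = 0.0027). Itgax, which encodes CD11c, a marker of nonclassical monocytes and dendritic cells, was at 1.43 and 1.21 CPM on OP9 and 22.8 and 28 CPM on OP9-DLL1 (log2 fold change 4.25 ± 0.37, limma-trend adjusted p = 0.00058).

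The 15 largest rises among named genes with at least 5 CPM in the higher group also held F11r, the junctional adhesion molecule JAM-A, at 10 and 6.6 CPM on OP9 and 108 and 106 CPM on OP9-DLL1 (log2 fold change 3.71 ± 0.34, limma-trend adjusted p = 0.00073), and the tetraspanin Tspan13, at 9.17 and 9.65 CPM on OP9 and 83.9 and 141 CPM on OP9-DLL1 (log2 fold change 3.53 ± 0.23, limma-trend adjusted p = 0.00014). Both were expressed on plain stroma and rose without overlap of the libraries, which the rule for naming them required. Abcg3, a mouse ABC transporter, was at 0.3 and 1.06 CPM on OP9 and 9.67 and 15.5 CPM on OP9-DLL1 (log2 fold change 4.41 ± 0.57, limma-trend adjusted p = 0.0034). The DNA-degrading enzyme gene Dnase1l3 was at 0 and 0.409 CPM on OP9 and 8.5 and 10.6 CPM on OP9-DLL1 (log2 fold change 7.10 ± 1.39, limma-trend adjusted p = 0.019), and the adhesion receptor gene Adgrg5 at 0.0231 and 0.595 CPM on OP9 and 6.4 and 5.98 CPM on OP9-DLL1 (log2 fold change 5.42 ± 1.15, limma-trend adjusted p = 0.027). Both were under 1 CPM in each OP9 library. The expressed sequence AW011738 (log2 fold change 4.07 ± 0.70), the heparan sulfate sulfotransferase Hs3st3b1 (3.78 ± 0.92) and Stra6l (3.57 ± 0.54), all under 11 CPM in every monocyte library, complete the 15. Hes1, Spic, Ocstamp, Cd22, Abcb1a, Ffar2, Itgax, F11r, Tspan13 and Abcg3 passed with any 1 library left out. Dnase1l3 (0.14), Adgrg5 (0.16), AW011738 (0.13) and Hs3st3b1 (0.22) did not pass without OP9-DLL1 replicate 1 or 2, nor Adgrg5 and Hs3st3b1 without 1 of the cMoP libraries. Stra6l (0.063) did not pass without OP9-DLL1 replicate 1. Abcb1a (to 5.86), Ffar2 (to 5.48), Dnase1l3 (to 9.69) and AW011738 (to 3.23) moved without OP9 replicate 2, and Abcg3 (to 3.52), Adgrg5 (to 3.36) and Hs3st3b1 (to 1.88) moved without OP9 replicate 1, each by over 1.5-fold.

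Because RBPJ is the protein through which Notch reaches DNA, the promoters of the 30 genes with the largest rises and falls were searched for its core letters TGGGAA on either strand. The windows are from RefSeq on GRCm38.p6 and run from 250 bases before to 50 bases after each start site, and 22 of the 30 genes had at least 1 window. Hes1 is among the 8 without a window and was not searched. The core lay in 6 of these 22. It was found in 5 of 12 genes with large rises and 1 of 10 with large falls, against 26.3% of 9067 tested genes with a window. Over all calls it was in 30.6% of 366 higher and 24.2% of 310 lower genes with a window. The longer form GTGGGAA, which contains the core, was in 9.29% of higher and 8.39% of lower genes and in 6.96% of all. The windows of the 5 genes with the largest rises among those with the core are shown as examples, and binding of RBPJ was not tested. Capitals mark TGGGAA or its reverse complement, each line reads 5′ to 3′ on the gene's strand, and a match is a description of the letters and not a site.
Cd22, minus strand of chr7:30878979-30879278, core 145 bases before the start: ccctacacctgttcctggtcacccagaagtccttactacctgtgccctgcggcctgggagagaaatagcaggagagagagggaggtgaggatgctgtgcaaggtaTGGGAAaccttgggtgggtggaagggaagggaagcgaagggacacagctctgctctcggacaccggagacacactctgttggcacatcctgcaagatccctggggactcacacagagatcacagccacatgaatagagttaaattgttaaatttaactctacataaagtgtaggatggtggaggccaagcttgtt
Ffar2, minus strand of chr7:30823726-30824025, cores 98 bases before and at the start: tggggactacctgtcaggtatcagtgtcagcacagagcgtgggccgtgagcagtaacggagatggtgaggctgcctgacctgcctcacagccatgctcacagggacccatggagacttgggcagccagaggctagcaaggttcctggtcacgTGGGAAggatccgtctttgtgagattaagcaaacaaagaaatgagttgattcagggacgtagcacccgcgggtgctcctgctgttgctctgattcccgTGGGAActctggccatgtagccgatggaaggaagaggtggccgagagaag
AW011738, plus strand of chr4:156203034-156203333, core 77 bases before the start: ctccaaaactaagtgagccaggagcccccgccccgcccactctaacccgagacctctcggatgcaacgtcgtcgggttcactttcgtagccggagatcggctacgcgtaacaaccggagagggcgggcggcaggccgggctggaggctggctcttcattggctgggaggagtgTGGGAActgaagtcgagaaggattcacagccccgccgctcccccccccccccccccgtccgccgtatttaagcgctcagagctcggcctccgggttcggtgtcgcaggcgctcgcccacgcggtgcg
F11r, plus strand of chr1:171437311-171437610, core 34 bases after the start: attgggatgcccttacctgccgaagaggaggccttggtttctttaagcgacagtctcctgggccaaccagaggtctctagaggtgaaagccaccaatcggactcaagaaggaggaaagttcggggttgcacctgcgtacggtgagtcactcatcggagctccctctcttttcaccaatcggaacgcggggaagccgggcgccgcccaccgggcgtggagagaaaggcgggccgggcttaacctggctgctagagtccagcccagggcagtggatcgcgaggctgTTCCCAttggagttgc
Stra6l, plus strand of chr4:45848697-45848996, core 41 bases after the start: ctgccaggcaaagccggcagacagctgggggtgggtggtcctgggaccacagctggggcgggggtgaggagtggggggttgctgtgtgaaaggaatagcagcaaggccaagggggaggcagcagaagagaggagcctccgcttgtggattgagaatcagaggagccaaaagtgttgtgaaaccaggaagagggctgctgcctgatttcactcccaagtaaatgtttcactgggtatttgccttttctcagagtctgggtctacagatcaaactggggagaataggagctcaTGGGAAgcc
Of 4 RefSeq windows of Ffar2 each held the core at least once, and the most upstream on its strand is shown. In the printed Ffar2 window both copies belong to the longer form GTGGGAA, and so does the copy in AW011738. The E-box CACGTG, the same letters on both strands and the site of Myc and its relatives, was in 21% of lower genes, 9.84% of higher genes and 12.2% of all. The ETS core GAGGAA, the kind of letters that Spi1 and Spic bind, was in 28.7% of lower, 35% of higher and 30.8% of all. Of the motifs searched, GTGGGAA contains TGGGAA.

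**Figure D2:**
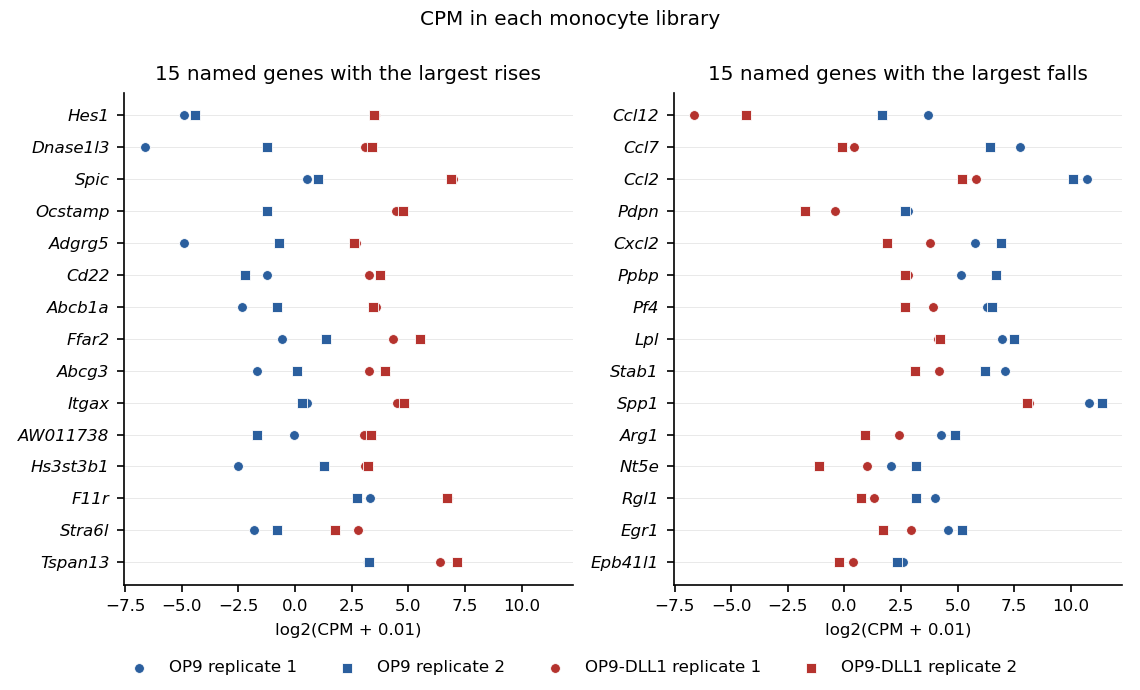
Points give log2(CPM + 0.01) in each of the 4 monocyte libraries for the 15 named genes with the largest rises and the 15 with the largest falls, OP9 in blue and OP9-DLL1 in red. The rule that chose the 30 genes required the 2 red points to lie on one side of the 2 blue ones.

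Among 43 tested genes of the Notch pathway 5 rose and 1 fell, 11.6% and 2.33% against the 3.36% and 3.03% of all genes, with a median log2 fold change of 0.10. Besides Hes1 the rises were in 2 genes of the γ-secretase that cuts the receptor, Aph1b (log2 fold change 1.25 ± 0.26, limma-trend adjusted p = 0.023) and Aph1c (log2 fold change 0.83 ± 0.20, limma-trend adjusted p = 0.046), in Mfng, the Manic Fringe enzyme that adds sugars to Notch (log2 fold change 1.04 ± 0.20, limma-trend adjusted p = 0.02), and in Cir1, a corepressor that binds RBPJ (log2 fold change 0.71 ± 0.17, limma-trend adjusted p = 0.04). Aph1b and Aph1c are near copies and may share reads. Rbpj itself (chromosome 5, 53466152 to 53657362) was at 66.7 and 72.2 CPM on OP9 and 30.1 and 24.4 CPM on OP9-DLL1 (log2 fold change -1.36 ± 0.17, limma-trend adjusted p = 0.0027), lower in both OP9-DLL1 libraries. The receptor Notch2 did not pass, at 60.2 and 70.5 CPM on OP9 and 75 and 67.3 CPM on OP9-DLL1 (log2 fold change 0.13 ± 0.16), nor did Notch1, at 44.1 and 42.3 CPM on OP9 and 43.9 and 33.6 CPM on OP9-DLL1 (-0.17 ± 0.18). Bcl6 (0.33 ± 0.60), Irf2 (-0.11 ± 0.16) and Nr4a1 (0.87 ± 0.41) did not pass either. The Nr4a1 log2 fold change did pass with voom weights (adjusted p = 0.0221) and without cMoP OP9 replicate 1 (limma-trend adjusted p = 0.0449) or 2 (0.0479). The gene was at 34.3 and 33.7 CPM on OP9 and 55.4 and 69.9 CPM on OP9-DLL1, with both OP9-DLL1 libraries the higher. Rbpj passed with any 1 library left out. Aph1b (0.13) and Mfng (0.14) did not pass without OP9-DLL1 replicate 1 or 2. Aph1c (0.21) did not pass without OP9 replicate 2 or OP9-DLL1 replicate 1 or 2 or without 1 of the cMoP libraries. Cir1 (0.2) did not pass without OP9 replicate 1 or OP9-DLL1 replicate 1 or 2 or without 1 of the cMoP libraries.

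Of 39 tested genes that mark nonclassical monocytes 14 rose and 0 fell (35.9% higher, median log2 fold change 0.42). The list was drawn up with earlier results of these data known, so its count is not independent evidence of its direction. Their rises ranged from Gngt2, a G protein γ subunit (0.74 ± 0.16), to Hes1. Itgal, the α chain of the integrin LFA-1 with which these cells crawl along endothelium, was at 52.7 and 32.8 CPM on OP9 and 214 and 225 CPM on OP9-DLL1 (log2 fold change 2.40 ± 0.20, limma-trend adjusted p = 0.00057). Pecam1, the adhesion molecule CD31, was at 7.11 and 6.83 CPM on OP9 and 38 and 36.4 CPM on OP9-DLL1 (log2 fold change 2.41 ± 0.15, limma-trend adjusted p = 0.00011), and the collagen-binding inhibitory receptor gene Lair1 was at 19.7 and 21.2 CPM on OP9 and 45.3 and 51.7 CPM on OP9-DLL1 (log2 fold change 1.24 ± 0.13, limma-trend adjusted p = 0.0013). Tnfrsf1b, the second TNF receptor, was at 96.8 and 77.5 CPM on OP9 and 175 and 174 CPM on OP9-DLL1 (log2 fold change 1.01 ± 0.14, limma-trend adjusted p = 0.004). Treml4 was at 29.7 and 16.7 CPM on OP9 and 186 and 127 CPM on OP9-DLL1, and the transglutaminase Tgm2 at 9.88 and 8.22 CPM on OP9 and 50.9 and 51.3 CPM on OP9-DLL1. Cd300e and the angiotensin-converting enzyme Ace, 2 further markers, passed at under 4 CPM in every library. Of 32 genes of classical monocytes 2 rose (6.25%), Plac8 and the glutathione reductase gene Gsr, and 5 fell (15.6%), with a median of -0.17. The shares of all genes were 3.36% and 3.03%. Plac8, a cysteine-rich protein abundant in classical monocytes (chromosome 5, 100553725 to 100572245), was at 223 and 209 CPM on OP9 and 939 and 1012 CPM on OP9-DLL1 (log2 fold change 2.18 ± 0.10, limma-trend adjusted p = 4e-05), with its 4 libraries in 2 tight pairs. Fn1, fibronectin, was at 620.1 and 599.5 CPM on OP9 and 289 and 214 CPM on OP9-DLL1 (log2 fold change -1.29 ± 0.16, limma-trend adjusted p = 0.0025), and Fcgr1, the high-affinity IgG receptor CD64, at 256 and 225 CPM on OP9 and 93.8 and 65.1 CPM on OP9-DLL1 (log2 fold change -1.62 ± 0.25, limma-trend adjusted p = 0.0074). Csf1r, the M-CSF receptor, was at 461 and 394 CPM on OP9 and 743 and 695 CPM on OP9-DLL1 (log2 fold change 0.75 ± 0.12, limma-trend adjusted p = 0.0073), while Itgam, which encodes CD11b, was at 172 and 183 CPM on OP9 and 116 and 98.2 CPM on OP9-DLL1 (log2 fold change -0.73 ± 0.17, limma-trend adjusted p = 0.041). Itgal, Pecam1, Lair1, Tnfrsf1b, Plac8, Gsr and Fn1 passed with any 1 library left out. Treml4 (0.083), Cd300e (0.32), Ace (0.19), Gngt2 (0.17) and Csf1r (0.065) did not pass without OP9-DLL1 replicate 1 or 2, nor Cd300e and Gngt2 without 1 of the cMoP libraries. Itgam (0.26) did not pass without OP9-DLL1 replicate 1 or 2 or without 1 of the cMoP libraries. Tgm2 (0.055) and Fcgr1 (0.073) did not pass without OP9-DLL1 replicate 2. Cd300e (to 6.08) moved without OP9 replicate 2, and Ace (to 8.28) moved without OP9 replicate 1, each by over 1.5-fold.

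Of 19 class II genes 8 rose (42.1%) and 0 fell, against 3.36% and 3.03% of all genes. Of 25 class I and peptide loading genes 6 rose (24%) and 1 fell (4%). Median log2 fold changes were 0.85 for class II and 0.40 for class I. Ciita, the transactivator that switches on class II genes, was at 3.6 and 8.7 CPM on OP9 and 44.2 and 79.7 CPM on OP9-DLL1 (log2 fold change 3.40 ± 0.52, limma-trend adjusted p = 0.0071). The class II β chain gene H2-Ab1 was at 56.2 and 101 CPM on OP9 and 283 and 636 CPM on OP9-DLL1 (log2 fold change 2.50 ± 0.37, limma-trend adjusted p = 0.0061), and H2-DMa, which helps load peptide, at 399 and 341 CPM on OP9 and 564 and 788 CPM on OP9-DLL1 (log2 fold change 0.85 ± 0.16, limma-trend adjusted p = 0.016). For each of these 3 genes OP9-DLL1 replicate 2 was the highest library, and the chains H2-Aa, H2-Ab1 and H2-Eb1 with the invariant chain Cd74 summed to 1804 and 1949 CPM on OP9 and 3543 and 5951 CPM on OP9-DLL1. In class I, the heavy chain gene H2-D1 was among the largest gains in reads, at 899 and 1504 CPM on OP9 and 3634 and 4411 CPM on OP9-DLL1 (log2 fold change 1.78 ± 0.25, limma-trend adjusted p = 0.0049). Its light chain B2m was at 1648 and 1408 CPM on OP9 and 2515 and 2276 CPM on OP9-DLL1 (log2 fold change 0.65 ± 0.13, limma-trend adjusted p = 0.019). Psmb9, an immunoproteasome subunit, rose (0.79 ± 0.15), as did the loading factor Tapbpl (0.94 ± 0.14), and the chaperone calreticulin, Calr, fell (-0.55 ± 0.14). H2-D1, H2-Q4 and H2-Q6 are close copies whose reads may be shared, and the same holds for the class II chains. The dendritic cell markers Batf3, at 0.6 and 0.372 CPM on OP9 and 3.59 and 4.31 CPM on OP9-DLL1, and Mgl2, at 0.208 and 0.837 CPM on OP9 and 3.12 and 2.81 CPM on OP9-DLL1, rose with them, while Flt3, Zbtb46 and Clec9a were not analysed here. The part of such cells in the class II rise was not tested. H2-Ab1 passed with any 1 library left out. Of these, H2-Ab1 did not pass without the mean-variance trend. B2m (0.13), Psmb9 (0.15), Tapbpl (0.062), Batf3 (0.23) and Mgl2 (0.11) did not pass without OP9-DLL1 replicate 1 or 2, nor Batf3 without 1 of the cMoP libraries. Ciita (0.12), H2-DMa (0.12) and H2-D1 (0.057) did not pass without OP9-DLL1 replicate 2. Calr (0.32) did not pass without OP9 replicate 1 or OP9-DLL1 replicate 1 or 2 or without 1 of the cMoP libraries. Ciita (to 2.77) and Mgl2 (to 1.81) moved without OP9 replicate 1, and H2-Ab1 (to 3.08) moved without OP9-DLL1 replicate 1, each by over 1.5-fold.

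Inhibitory and paired receptors had 12 members higher and 3 lower of 45 tested (26.7% and 6.67%, median 0.31). Many of the inhibitory ones carry tyrosine motifs that recruit phosphatases and damp activation. The list also holds the adaptor gene Dok2. Cd244a, the receptor 2B4, was at 32 and 46.8 CPM on OP9 and 212 and 251 CPM on OP9-DLL1 (log2 fold change 2.57 ± 0.21, limma-trend adjusted p = 0.00049), and Siglece, a sialic acid-binding lectin of myeloid cells, at 34.4 and 24.6 CPM on OP9 and 90.3 and 92.9 CPM on OP9-DLL1 (log2 fold change 1.65 ± 0.17, limma-trend adjusted p = 0.0013). Havcr2, which encodes TIM-3, was at 5.89 and 8.96 CPM on OP9 and 38.3 and 32.7 CPM on OP9-DLL1 (log2 fold change 2.28 ± 0.54, limma-trend adjusted p = 0.041), and Cd300a, a receptor for phospholipids of dying cells, at 344 and 238 CPM on OP9 and 558 and 516 CPM on OP9-DLL1 (log2 fold change 0.91 ± 0.17, limma-trend adjusted p = 0.017). The adaptor gene Dok2, which restrains receptor tyrosine kinase signals, went the other way, at 866 and 584 CPM on OP9 and 238 and 263 CPM on OP9-DLL1 (log2 fold change -1.51 ± 0.17, limma-trend adjusted p = 0.0019). Trem2, a lipid-sensing receptor of macrophages, was also lower (log2 fold change -0.80 ± 0.16, limma-trend adjusted p = 0.019). Of 8 Fc receptor genes 1 rose and 1 fell (12.5% each). Of the 8, 6 had a positive and 2 a negative log2 fold change, with a median of 0.296. The rise was in the inhibitory Fcgr2b (log2 fold change 1.04 ± 0.14, limma-trend adjusted p = 0.0039). Fcgr2b was at 369.9 and 291 CPM on OP9 and 662 and 687 CPM on OP9-DLL1. The fall was in the activating Fcgr1. A switch from activating to inhibitory Fc receptors was not tested. Cd244a, Siglece, Dok2 and Fcgr2b passed with any 1 library left out. Cd300a (0.11) and Trem2 (0.12) did not pass without OP9-DLL1 replicate 1 or 2. Havcr2 (0.19) did not pass without OP9 replicate 1 or OP9-DLL1 replicate 1 or 2 or without 1 of the cMoP libraries.

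Among 54 cytokine receptor subunits 10 rose (18.5%, against 3.36% of all genes) and 0 fell (median 0.20). Il21r, the interleukin-21 receptor chain, was at 13.4 and 17.1 CPM on OP9 and 65.7 and 71.4 CPM on OP9-DLL1 (log2 fold change 2.18 ± 0.17, limma-trend adjusted p = 0.0003). The receptors for TGF-β, Tgfbr1 (1.47 ± 0.21), for G-CSF, Csf3r (1.004 ± 0.16), and for interleukin-10, Il10ra (0.98 ± 0.19), were among the others. The 10 include Pdgfrb, which is also a stromal marker, at 0.0231 and 0.205 CPM on OP9 and 2.89 and 4.23 CPM on OP9-DLL1. In the list of adhesion and purinergic G protein-coupled receptors and their regulators 9 of 47 rose and 2 fell (19.1% and 4.26%, median 0.24). Grk3, a kinase that shuts such receptors off, was at 6.53 and 8.78 CPM on OP9 and 42.8 and 44.6 CPM on OP9-DLL1 (log2 fold change 2.53 ± 0.21, limma-trend adjusted p = 0.00046), and Rgs2, which shortens G protein signals, at 193 and 190.0 CPM on OP9 and 439.5 and 442 CPM on OP9-DLL1 (log2 fold change 1.20 ± 0.10, limma-trend adjusted p = 0.00049). Adgre5, the adhesion receptor CD97, was at 21.4 and 20.4 CPM on OP9 and 126 and 101 CPM on OP9-DLL1 (log2 fold change 2.43 ± 0.30, limma-trend adjusted p = 0.003). The proton-sensing receptor gene Gpr65 rose too (0.85 ± 0.13), and Nt5e, the CD73 enzyme that makes adenosine, was at 4.2 and 9.08 CPM on OP9 and 1.97 and 0.446 CPM on OP9-DLL1 (log2 fold change -2.70 ± 0.64, limma-trend adjusted p = 0.041). Nt5e is a stromal marker as well, and the part of stromal RNA in its fall and in the rise of Pdgfrb was not tested. Il21r, Grk3, Rgs2 and Adgre5 passed with any 1 library left out. Il10ra (0.11), Pdgfrb (0.12) and Gpr65 (0.06) did not pass without OP9-DLL1 replicate 1 or 2. Tgfbr1 (0.057) did not pass without OP9-DLL1 replicate 1. Csf3r (0.079) did not pass without OP9-DLL1 replicate 2. Nt5e (0.2) did not pass without OP9 replicate 2 or OP9-DLL1 replicate 2 or without 1 of the cMoP libraries. Pdgfrb (to 4.04) moved without OP9 replicate 1, and Nt5e (to -1.64) moved without OP9-DLL1 replicate 2, each by over 1.5-fold.

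Of 42 genes of the Toll-like receptor, interleukin-1 and inflammasome list, which sense and relay microbial signals, 7 rose and 1 fell. These are 16.7% and 2.38%, against 3.36% and 3.03% of all genes. Nod1, a sensor of bacterial cell wall fragments, was at 9.4 and 5.51 CPM on OP9 and 37.9 and 45.6 CPM on OP9-DLL1 (log2 fold change 2.53 ± 0.26, limma-trend adjusted p = 0.0012). The decoy receptor gene Il1r2 was at 19.7 and 20.7 CPM on OP9 and 75 and 96.3 CPM on OP9-DLL1 (log2 fold change 2.07 ± 0.26, limma-trend adjusted p = 0.0032), and Il1rn, the interleukin-1 receptor antagonist, at 48.1 and 46.5 CPM on OP9 and 136 and 126 CPM on OP9-DLL1 (log2 fold change 1.47 ± 0.21, limma-trend adjusted p = 0.0052), so 2 of the rises were in genes whose products block interleukin-1. The adaptor gene Myd88 (0.75 ± 0.15) and the pyrin gene Mefv (1.16 ± 0.17) rose, and the inflammasome adaptor Pycard was at 318 and 316 CPM on OP9 and 194 and 199 CPM on OP9-DLL1 (log2 fold change -0.69 ± 0.10, limma-trend adjusted p = 0.0052). Of 40 genes of the NF-κB pathway 4 rose (10%) and 0 fell, among them Tnfaip2 (0.96 ± 0.11), Nfkb2 (1.002 ± 0.21) and Icam1, the ligand of LFA-1 (1.06 ± 0.18). Of 29 genes of the JAK and STAT pathway 4 rose (13.8%) and 0 fell, including the kinases Jak3 (1.19 ± 0.24), Jak1 (0.84 ± 0.16) and Tyk2 (0.55 ± 0.14). Of 64 interferon-stimulated genes 6 rose (9.38%), all of them guanylate-binding proteins, and 1 fell (1.56%), Usp18 (-0.92 ± 0.22). Gbp3 was at 16 and 16.1 CPM on OP9 and 62.4 and 51.4 CPM on OP9-DLL1 (log2 fold change 1.82 ± 0.15, limma-trend adjusted p = 0.00045). The median of the interferon list was 0.0023 and turned to -0.0775 with centred libraries, so no direction is given for the list as a whole. Nod1, Il1r2, Il1rn, Tnfaip2 and Gbp3 passed with any 1 library left out. Mefv (0.055), Pycard (0.055), Jak3 (0.17) and Jak1 (0.15) did not pass without OP9-DLL1 replicate 2. Myd88 (0.17) and Nfkb2 (0.21) did not pass without OP9-DLL1 replicate 1 or 2. Tyk2 (0.31) and Usp18 (0.27) did not pass without OP9 replicate 1 or OP9-DLL1 replicate 1 or 2 or without 1 of the cMoP libraries. Icam1 (0.086) did not pass without OP9-DLL1 replicate 1.

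Of 86 transcription factors of the monocyte, macrophage and dendritic cell lineage 12 rose and 3 fell (14% and 3.49%). Nr1h3, the oxysterol receptor LXRα, was at 19.2 and 9.34 CPM on OP9 and 131 and 107 CPM on OP9-DLL1 (log2 fold change 3.15 ± 0.43, limma-trend adjusted p = 0.0044), and Runx3 at 16.9 and 25 CPM on OP9 and 64.5 and 84.5 CPM on OP9-DLL1 (log2 fold change 1.85 ± 0.22, limma-trend adjusted p = 0.0021). The interferon regulatory factor genes Irf1 (log2 fold change 1.32 ± 0.14, limma-trend adjusted p = 0.0012) and Irf8 (log2 fold change 1.53 ± 0.22, limma-trend adjusted p = 0.0055) rose, Irf8 being the factor that commits progenitors to monocytes and dendritic cells, at 59.5 and 75.6 CPM on OP9 and 160.1 and 233 CPM on OP9-DLL1. Those that fell included Klf7 (-0.71 ± 0.17) and Maf, a factor of macrophages, at 52.6 and 52.1 CPM on OP9 and 22.9 and 17 CPM on OP9-DLL1 (log2 fold change -1.41 ± 0.28, limma-trend adjusted p = 0.021). Immediate early genes were split, since Egr1, which responds to M-CSF and other growth signals, was at 23.6 and 36 CPM on OP9 and 7.64 and 3.3 CPM on OP9-DLL1 (log2 fold change -2.53 ± 0.38, limma-trend adjusted p = 0.0062) and Fos also fell (-0.70 ± 0.15), while the phosphatase genes Dusp6, which switches off ERK, at 38.3 and 69.9 CPM on OP9 and 167 and 188 CPM on OP9-DLL1 (log2 fold change 1.77 ± 0.26, limma-trend adjusted p = 0.0058), and Dusp2 (2.01 ± 0.35) rose. Nr1h3, Runx3, Irf1 and Egr1 passed with any 1 library left out. Of these, Egr1 did not pass without the mean-variance trend. Irf8 (0.054) and Dusp6 (0.064) did not pass without OP9-DLL1 replicate 2. Maf (0.18) and Dusp2 (0.11) did not pass without OP9-DLL1 replicate 1 or 2. Klf7 (0.28) did not pass without OP9 replicate 1 or OP9-DLL1 replicate 1 or 2 or without 1 of the cMoP libraries. Fos (0.23) did not pass without OP9 replicate 1 or OP9-DLL1 replicate 2 or without 1 of the cMoP libraries. Egr1 (to -1.93) without OP9-DLL1 replicate 2 moved by over 1.5-fold.

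Of 18 chemokine genes, a list chosen with earlier results known, 9 fell and 0 rose (50% lower, median -1.88). By CPM summed over the list they went from 9993 and 7234 on OP9 to 3386 and 2616 on OP9-DLL1. Ccl2, which draws CCR2-bearing monocytes (chromosome 11, 82035571 to 82037453), was at 1692 and 1088 CPM on OP9 and 56.9 and 37 CPM on OP9-DLL1 (log2 fold change -4.89 ± 0.26, limma-trend adjusted p = 4.8e-05). Its neighbour Ccl7 was at 219 and 87.5 CPM on OP9 and 1.33 and 0.932 CPM on OP9-DLL1 (log2 fold change -6.94 ± 0.52, limma-trend adjusted p = 0.0003), and Ccl12 at 12.8 and 3.11 CPM on OP9 and 0 and 0.0388 CPM on OP9-DLL1, which is 721 reads against 2, an OP9 to OP9-DLL1 ratio of 372 with a counting interval of 103 to 3080.0. These 3 genes lie in 1 cluster on chromosome 11 and are similar enough to share reads. Ccl6 and Ccl9, abundant chemokines of mouse myeloid cells, were at 4459.6 and 2744 CPM on OP9 and 1064 and 719.6 CPM on OP9-DLL1 (limma-trend adjusted p = 0.0033) and at 1746 and 2006 CPM on OP9 and 637 and 477 CPM on OP9-DLL1 (log2 fold change -1.76 ± 0.22, limma-trend adjusted p = 0.0032). The neutrophil attractant gene Cxcl2 was at 54.8 and 119 CPM on OP9 and 13.8 and 3.63 CPM on OP9-DLL1 (log2 fold change -3.51 ± 0.66, limma-trend adjusted p = 0.017), with a spread of more than 3-fold between its OP9-DLL1 libraries. Pf4, at 77.6 and 91.1 CPM on OP9 and 15.1 and 6.33 CPM on OP9-DLL1 (log2 fold change -3.10 ± 0.46, limma-trend adjusted p = 0.0061), and Ppbp, at 35.6 and 104 CPM on OP9 and 7.1 and 6.37 CPM on OP9-DLL1 (log2 fold change -3.17 ± 0.73, limma-trend adjusted p = 0.037), are stored in platelets, and other platelet markers such as Itga2b and Gp9 were not analysed here. The part of platelet RNA in the fall of Pf4 and Ppbp was not tested. Ccl2, Ccl7, Ccl12, Ccl6 and Ccl9 passed with any 1 library left out. Of these, Ccl12 was not tested under the 5 CPM filter. Ccl3 (0.15), Cxcl2 (0.11) and Pf4 (0.054) did not pass without OP9-DLL1 replicate 2. Ppbp (0.26) did not pass without OP9 replicate 1 or 2 or OP9-DLL1 replicate 1 or 2. Ccl7 (to -6.28) moved without OP9 replicate 1, and Ccl12 (to -7.02) moved without OP9-DLL1 replicate 1, and Cxcl2 (to -2.55) and Pf4 (to -2.48) moved without OP9-DLL1 replicate 2, and Ppbp (to -2.40) moved without OP9 replicate 2, each by over 1.5-fold.

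Among receptors for chemoattractants 4 of 29 rose and 6 fell (13.8% and 20.7%, against 3.36% and 3.03% of all genes). Both receptors for complement anaphylatoxins were lower: C3ar1 was at 337 and 264 CPM on OP9 and 79.9 and 59.3 CPM on OP9-DLL1 (log2 fold change -2.12 ± 0.21, limma-trend adjusted p = 0.0011) and C5ar1 at 498 and 513 CPM on OP9 and 214 and 133 CPM on OP9-DLL1 (log2 fold change -1.58 ± 0.25, limma-trend adjusted p = 0.0082). The chemokine receptor gene Ccr1 (-0.55 ± 0.11) fell, whereas Ptafr, the receptor of platelet-activating factor (0.99 ± 0.16), and Gpr35 (0.75 ± 0.14) rose. Of 15 complement genes 5 fell and 0 rose (median -0.66), including Cfp, the positive regulator properdin, at 3102 and 2003 CPM on OP9 and 1322 and 1312 CPM on OP9-DLL1 (log2 fold change -0.92 ± 0.18, limma-trend adjusted p = 0.019). Of 33 cytokines and growth factors 4 rose and 7 fell (12.1% and 21.2%). Spp1, osteopontin (chromosome 5, 104435118 to 104441050), was at 1777 and 2627 CPM on OP9 and 280.4 and 265 CPM on OP9-DLL1 (log2 fold change -2.99 ± 0.18, limma-trend adjusted p = 0.00011), and the galectin gene Lgals1 at 1602 and 1605 CPM on OP9 and 919 and 1002 CPM on OP9-DLL1 (log2 fold change -0.74 ± 0.10, limma-trend adjusted p = 0.0038). Il16 (1.36 ± 0.13), Il18 (1.13 ± 0.19) and Tgfb1 (0.82 ± 0.19) rose beside Il1rn. C3ar1, Spp1, Lgals1 and Il16 passed with any 1 library left out. Of these, Lgals1 did not pass without the mean-variance trend or with only the 4 monocyte libraries. Ccr1 (0.19), Ptafr (0.082), Gpr35 (0.13), Cfp (0.13) and Il18 (0.091) did not pass without OP9-DLL1 replicate 1 or 2, nor Ccr1 without 1 of the cMoP libraries. Tgfb1 (0.17) did not pass without OP9-DLL1 replicate 1 or 2 or without 1 of the cMoP libraries. C5ar1 (0.07) did not pass without OP9-DLL1 replicate 2.

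**Figure D3:**
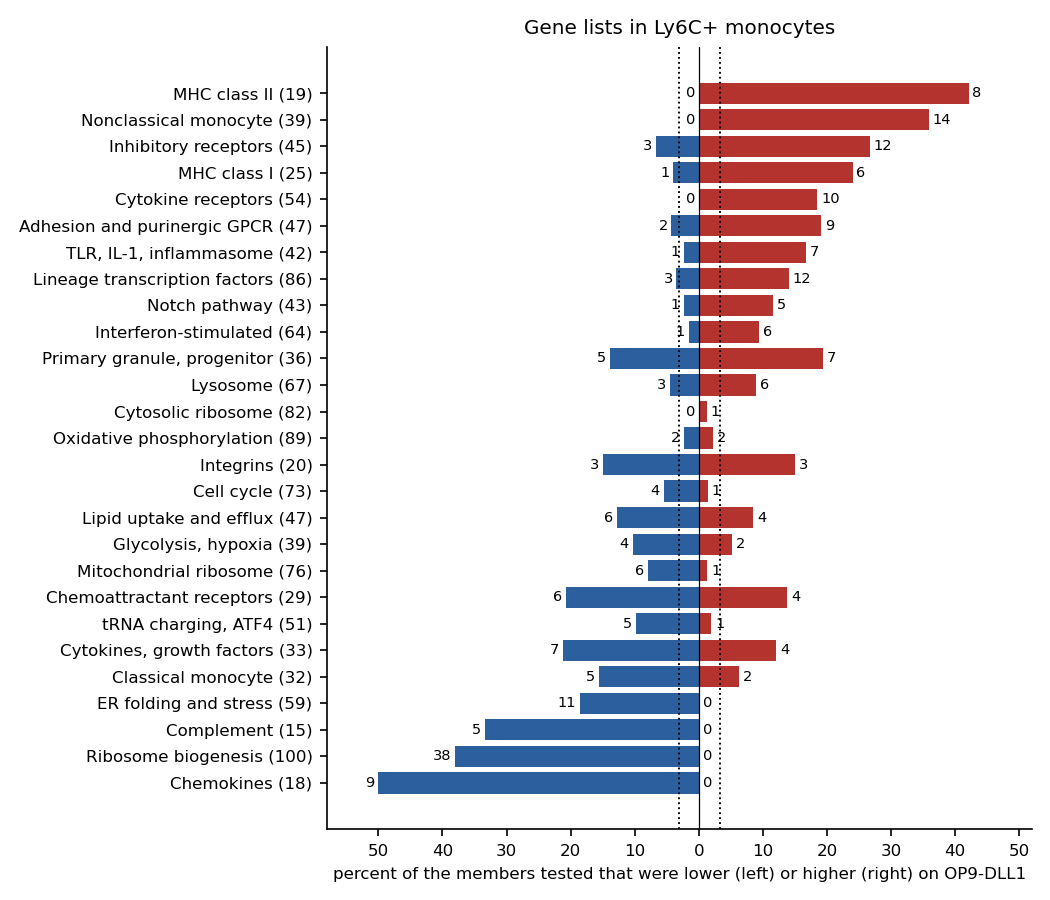
Bars give the percent of tested members of 27 gene lists that were higher (red, right) or lower (blue, left) on OP9-DLL1 in monocytes, with the number of genes at each bar's end, the number tested in brackets and dotted lines at 3.36% and 3.03% for all genes. The class II list reaches 42.1% higher, and the chemokine list 50% and ribosome biogenesis 38% lower. The lists were chosen with earlier results of these data known.

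Genes of macrophage scavenging and lipid handling were divided, with 4 higher and 6 lower of 47 (8.51% and 12.8%). Lpl, the lipoprotein lipase, was at 125 and 177 CPM on OP9 and 17.6 and 18.9 CPM on OP9-DLL1 (log2 fold change -3.03 ± 0.31, limma-trend adjusted p = 0.0012), Dab2, an endocytic adaptor, at 176 and 137 CPM on OP9 and 41.6 and 29.7 CPM on OP9-DLL1 (log2 fold change -2.14 ± 0.23, limma-trend adjusted p = 0.0014), and the scavenger receptor gene Stab1 at 137 and 73.7 CPM on OP9 and 18 and 8.56 CPM on OP9-DLL1 (log2 fold change -3.02 ± 0.48, limma-trend adjusted p = 0.0083). The haemoglobin scavenger Cd163 was at 3.19 and 1.67 CPM on OP9 and 0.369 and 0.311 CPM on OP9-DLL1 (log2 fold change -2.73 ± 0.46, limma-trend adjusted p = 0.01), and Msr1, another scavenger receptor gene, also fell (-0.86 ± 0.16). In contrast Dgat2, the last enzyme of triglyceride synthesis, was at 12.6 and 11.7 CPM on OP9 and 51.7 and 39.3 CPM on OP9-DLL1 (log2 fold change 1.89 ± 0.22, limma-trend adjusted p = 0.002), and the fatty acid binding protein gene Fabp5 at 122 and 206 CPM on OP9 and 431 and 652 CPM on OP9-DLL1 (log2 fold change 1.74 ± 0.25, limma-trend adjusted p = 0.0056). Of 46 genes of heme and iron handling 3 rose and 3 fell (6.52% each, against 3.36% and 3.03% of all genes). Spic and Hfe (1.87 ± 0.29) were among the rises. The metal importer Slc39a14, at 43.6 and 57.8 CPM on OP9 and 11.2 and 12.2 CPM on OP9-DLL1 (log2 fold change -2.10 ± 0.18, limma-trend adjusted p = 0.00058), was among the falls. Of 39 cholesterol and fatty acid synthesis genes 4 rose (10.3%) and 0 fell, led by the desaturase gene Fads2 (1.51 ± 0.24). Only 1 of the 39 passed with centred libraries, and 0 without OP9-DLL1 replicate 1 or 2. Of 67 lysosomal genes 6 rose and 3 fell (8.96% and 4.48%). The saposin precursor Psap, at 1816 and 3221 CPM on OP9 and 5262 and 5614 CPM on OP9-DLL1 (log2 fold change 1.17 ± 0.23, limma-trend adjusted p = 0.02), and Gm2a, the ganglioside activator protein (1.16 ± 0.17), were higher. The proteases cathepsin L, Ctsl, at 645 and 1068 CPM on OP9 and 320.4 and 237 CPM on OP9-DLL1 (log2 fold change -1.59 ± 0.22, limma-trend adjusted p = 0.0051), and cathepsin D, Ctsd (-0.88 ± 0.20), were lower. Macrophage markers as a whole gave 0 higher and 2 lower of 11, and the part of macrophages among the cells in the falls of Stab1 and Cd163 was not tested. Lpl, Dab2, Dgat2 and Slc39a14 passed with any 1 library left out. Stab1 (0.078), Cd163 (0.075), Msr1 (0.13), Fabp5 (0.057) and Hfe (0.077) did not pass without OP9-DLL1 replicate 2. Gm2a (0.073) and Ctsl (0.055) did not pass without OP9-DLL1 replicate 2. Fads2 (0.059) and Psap (0.14) did not pass without OP9-DLL1 replicate 1 or 2. Ctsd (0.26) did not pass without OP9 replicate 1 or OP9-DLL1 replicate 1 or 2 or without 1 of the cMoP libraries.

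Adhesion genes moved both ways. Of 20 integrin subunits 3 rose and 3 fell (15% each, against 3.36% and 3.03% of all genes). Of 40 other adhesion, junction and tetraspanin genes 7 rose and 4 fell (17.5% and 10%). Beside Itgax and Itgal, the α4 chain gene Itga4, which pairs to bind VCAM1, was at 42.5 and 47.8 CPM on OP9 and 123 and 112 CPM on OP9-DLL1 (log2 fold change 1.38 ± 0.14, limma-trend adjusted p = 0.0012). Itga1, the α chain of a collagen receptor, fell (-1.02 ± 0.23), as did Itga6, that of laminin receptors (-1.75 ± 0.30), and Itgam. Jaml, a junctional adhesion molecule of leukocytes, was at 34.8 and 32.5 CPM on OP9 and 139 and 127 CPM on OP9-DLL1 (log2 fold change 1.98 ± 0.24, limma-trend adjusted p = 0.0027), and Pecam1 and F11r rose with it. Podoplanin, Pdpn, which marks stromal cells and some macrophages, was at 6.93 and 6.3 CPM on OP9 and 0.739 and 0.291 CPM on OP9-DLL1 (log2 fold change -3.80 ± 0.96, limma-trend adjusted p = 0.0496). The stromal markers, summing to 142 and 128 CPM on OP9 and 96.5 and 90.7 CPM on OP9-DLL1, were lower beside it, and their part in its fall was not tested. Timp1, an inhibitor of matrix proteases, was at 129 and 112 CPM on OP9 and 38.5 and 30.4 CPM on OP9-DLL1 (log2 fold change -1.81 ± 0.16, limma-trend adjusted p = 0.00058). The matrix list as a whole had 2 higher and 4 lower of 44 (4.55% and 9.09%, against 3.36% and 3.03% of all genes). Itga4, Jaml and Timp1 passed with any 1 library left out. Itga1 (0.17) and Itga6 (0.088) did not pass without OP9-DLL1 replicate 1 or 2, nor Itga1 without 1 of the cMoP libraries. Pdpn (0.28) did not pass without OP9 replicate 1 or 2 or OP9-DLL1 replicate 1 or 2 or without 1 of the cMoP libraries. Pdpn (to -4.46) without OP9-DLL1 replicate 1 moved by over 1.5-fold.

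Ribosome biogenesis had the most falls of any list, with 38 of 100 tested genes lower and 0 higher, against 3.03% of all genes lower. This list too was chosen with earlier results of these data known, so its count is not independent evidence. Its median log2 fold change was -0.47, and 87 of the 100 had a negative value. The list's median level was 5.44 and 5.61 log2 CPM in the OP9 libraries and 4.98 and 4.99 in the OP9-DLL1 libraries. The falls were modest gene by gene, from Nip7 (-0.47 ± 0.11) to the maturation factor Tsr1 (-1.48 ± 0.21). Gnl3, nucleostemin, was at 41.3 and 55.1 CPM on OP9 and 17 and 18.1 CPM on OP9-DLL1 (log2 fold change -1.44 ± 0.15, limma-trend adjusted p = 0.0012), and Rrp15, of the large subunit pathway, at 52.3 and 49.6 CPM on OP9 and 24 and 21.8 CPM on OP9-DLL1 (log2 fold change -1.16 ± 0.12, limma-trend adjusted p = 0.0011). The assembly factors Grwd1 (log2 fold change -1.05 ± 0.12, limma-trend adjusted p = 0.0019) and Nle1 (log2 fold change -1.12 ± 0.14, limma-trend adjusted p = 0.0027) also fell. The box H/ACA particle gene Gar1 (-1.36 ± 0.22), the box C/D particle gene Nop58 (-1.12 ± 0.16) and Polr1b, a subunit of RNA polymerase I (-0.83 ± 0.20), were lower too. Of 82 structural proteins of the cytosolic ribosome 1 rose and 0 fell by limma-trend, and their median of 0.04 became -0.04 with centred libraries. The 1 that rose, Rpl13, was at 261 and 581 CPM on OP9 and 968 and 1699 CPM on OP9-DLL1 (log2 fold change 1.72 ± 0.39, limma-trend adjusted p = 0.033), and pseudogene copies may share its reads. With centred libraries 2 of the 82 passed as lower, and with voom weights 1. Gnl3, Rrp15, Grwd1 and Nle1 passed with any 1 library left out. Tsr1 (0.054), Gar1 (0.074) and Nop58 (0.057) did not pass without OP9-DLL1 replicate 2. Polr1b (0.2) did not pass without OP9 replicate 2 or OP9-DLL1 replicate 1 or 2 or without 1 of the cMoP libraries. Nip7 (0.19) did not pass without OP9-DLL1 replicate 1 or 2 or without 1 of the cMoP libraries. Rpl13 (0.24) did not pass without OP9 replicate 1 or OP9-DLL1 replicate 1 or 2 or without 1 of the cMoP libraries.

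Myc, the transcription factor that drives ribosome production (chromosome 15, 61985391 to 61990374), was at 15.1 and 20.8 CPM on OP9 and 5.05 and 6.31 CPM on OP9-DLL1 (log2 fold change -1.65 ± 0.18, limma-trend adjusted p = 0.0014), lower in both OP9-DLL1 libraries. In the list of the Myc network and polyamines 4 of 33 genes rose and 4 fell (12.1% each). The synthesis genes Odc1, at 14.2 and 16.2 CPM on OP9 and 5.13 and 7.32 CPM on OP9-DLL1 (log2 fold change -1.30 ± 0.18, limma-trend adjusted p = 0.0052), and Srm (log2 fold change -1.46 ± 0.27, limma-trend adjusted p = 0.016) were lower. Sat1, which starts polyamine breakdown, at 591 and 514 CPM on OP9 and 1237 and 1280.5 CPM on OP9-DLL1 (log2 fold change 1.19 ± 0.11, limma-trend adjusted p = 0.0008), and the oxidase genes Smox (0.95 ± 0.17) and Paox (1.04 ± 0.24) were higher. Hmga1, a chromatin protein of growing cells, was at 150.1 and 132 CPM on OP9 and 54 and 55.5 CPM on OP9-DLL1 (log2 fold change -1.36 ± 0.11, limma-trend adjusted p = 0.00044), and some of its reads may come from the copy Hmga1b. The histone demethylase gene Kdm6b was at 23.1 and 23 CPM on OP9 and 48 and 59.7 CPM on OP9-DLL1 (log2 fold change 1.21 ± 0.15, limma-trend adjusted p = 0.0029). Of 73 cell cycle genes 1 rose (1.37%) and 4 fell (5.48%), against 3.36% and 3.03% of all genes. Of the 73, 58 had a positive log2 fold change, with a median of 0.22. The list's median level was 4.72 and 5.55 log2 CPM in the OP9 libraries and 5.32 and 5.47 in the OP9-DLL1 libraries. Both OP9-DLL1 medians lay between the OP9 ones, so no direction is given for the list as a whole. The rise that passed was in the cyclin gene Ccnd3 (0.93 ± 0.19). The falls were in Cdk6, at 57.6 and 77.9 CPM on OP9 and 29.7 and 34.1 CPM on OP9-DLL1 (log2 fold change -1.08 ± 0.15, limma-trend adjusted p = 0.0052), Cdk4 (-0.43 ± 0.10), Ccnd1 (-1.85 ± 0.35) and E2f3 (-1.36 ± 0.30). Myc, Odc1, Sat1, Hmga1, Kdm6b and Cdk6 passed with any 1 library left out. Of these, Cdk6 did not pass without the mean-variance trend, and Odc1 did not pass with only the 4 monocyte libraries. Smox (0.11), Cdk4 (0.24) and Ccnd1 (0.1) did not pass without OP9-DLL1 replicate 1 or 2, nor Cdk4 without 1 of the cMoP libraries. Srm (0.068) did not pass without OP9-DLL1 replicate 1. Paox (0.25) did not pass without OP9 replicate 1 or OP9-DLL1 replicate 1 or 2 or without 1 of the cMoP libraries. Ccnd3 (0.19) did not pass without OP9-DLL1 replicate 2 or without 1 of the cMoP libraries. E2f3 (0.16) did not pass without OP9 replicate 2 or OP9-DLL1 replicate 1 or 2 or without 1 of the cMoP libraries.

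Protein folding genes of the endoplasmic reticulum gave 11 lower and 0 higher of 59 (18.6% lower, median -0.20). Hspa5, the chaperone BiP, was at 1691 and 1214 CPM on OP9 and 831 and 806 CPM on OP9-DLL1 (log2 fold change -0.81 ± 0.15, limma-trend adjusted p = 0.016), and Hsp90b1, its partner GRP94, at 853 and 879 CPM on OP9 and 602 and 534 CPM on OP9-DLL1 (log2 fold change -0.61 ± 0.11, limma-trend adjusted p = 0.012). The translocation factor Sec63 was at 33.9 and 34.4 CPM on OP9 and 19.2 and 16.9 CPM on OP9-DLL1 (log2 fold change -0.93 ± 0.18, limma-trend adjusted p = 0.02). In the tRNA charging and amino acid list 5 of 51 fell (9.8%), including the asparagine synthetase gene Asns (-1.12 ± 0.25), and 1 rose (1.96%). In glycolysis and the hypoxia response 4 of 39 fell (10.3%), with arginase, Arg1, at 19.4 and 29.8 CPM on OP9 and 5.38 and 1.88 CPM on OP9-DLL1 (log2 fold change -2.91 ± 0.71, limma-trend adjusted p = 0.044), and 2 rose (5.13%). Of 76 mitochondrial ribosomal proteins 6 fell and 1 rose, and of 89 nuclear genes of oxidative phosphorylation 2 fell and 2 rose, shares that for the latter lie near those of all genes. Ndufaf4, an assembly factor of complex I, was at 42.7 and 46.4 CPM on OP9 and 23.2 and 23.9 CPM on OP9-DLL1 (log2 fold change -0.92 ± 0.12, limma-trend adjusted p = 0.0035). The glutathione genes Gss (log2 fold change 1.23 ± 0.16, limma-trend adjusted p = 0.0037) and Gsr (log2 fold change 0.97 ± 0.11, limma-trend adjusted p = 0.0015) rose, and Prdx6, a peroxiredoxin, was at 2452 and 2230.1 CPM on OP9 and 1606 and 1083 CPM on OP9-DLL1 (log2 fold change -0.83 ± 0.17, limma-trend adjusted p = 0.026). Ndufaf4, Gss and Gsr passed with any 1 library left out. Hspa5 (0.13), Sec63 (0.15) and Asns (0.16) did not pass without OP9-DLL1 replicate 1 or 2, nor Asns without 1 of the cMoP libraries. Hsp90b1 (0.13) and Prdx6 (0.16) did not pass without OP9-DLL1 replicate 2, nor Prdx6 without 1 of the cMoP libraries. Arg1 (0.28) did not pass without OP9 replicate 1 or 2 or OP9-DLL1 replicate 1 or 2 or without 1 of the cMoP libraries. Arg1 (to -2.16) without OP9-DLL1 replicate 2 moved by over 1.5-fold.

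Genes of primary granules and progenitors split into 7 higher and 5 lower of 36 (19.4% and 13.9%, against 3.36% and 3.03% of all genes). Ms4a3, a marker of granulocyte and monocyte progenitors, was at 2.33 and 4.2 CPM on OP9 and 13.7 and 16.1 CPM on OP9-DLL1 (log2 fold change 2.24 ± 0.24, limma-trend adjusted p = 0.0013), Hdc, which makes histamine, at 13.6 and 10.9 CPM on OP9 and 45.7 and 41 CPM on OP9-DLL1 (log2 fold change 1.83 ± 0.20, limma-trend adjusted p = 0.0014), and Ramp1, a partner of the calcitonin receptor family, at 5.52 and 7.63 CPM on OP9 and 22.3 and 31.4 CPM on OP9-DLL1 (log2 fold change 2.03 ± 0.21, limma-trend adjusted p = 0.0012). These 3 and Plac8 kept their libraries apart by more than 2-fold. Hdc is also 1 of 5 mast cell and basophil markers in the table, which summed to 23.8 and 47.1 CPM on OP9 and 46.1 and 66.4 CPM on OP9-DLL1. The other 4 had negative log2 fold changes, and the basophil protease Mcpt8 was at 1.36 and 7.44 CPM on OP9 and 0.349 and 6.6 CPM on OP9-DLL1. The 13 neutrophil markers summed to 2169.5 and 2683.5 CPM on OP9 and 1893 and 1903 CPM on OP9-DLL1, with 1 of them higher and 0 lower. Ms4a3, Hdc and Ramp1 passed with any 1 library left out.

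By reads rather than fold, the largest gains among named genes on OP9-DLL1 were in Psap and H2-D1, and Taldo1, Tgfbi, Gm2a, Rpl13, Ctss, B2m and Plac8 also gained. Itm2b, a membrane protein of unsettled role in these cells, was at 253 and 400.1 CPM on OP9 and 819 and 1313 CPM on OP9-DLL1 (log2 fold change 1.70 ± 0.30, limma-trend adjusted p = 0.012), the matrix protein gene Tgfbi at 2584 and 3152 CPM on OP9 and 4026 and 4064 CPM on OP9-DLL1 (log2 fold change 0.50 ± 0.12, limma-trend adjusted p = 0.047) and the pentose phosphate enzyme gene Taldo1 at 3103 and 2496 CPM on OP9 and 4094 and 3867 CPM on OP9-DLL1 (log2 fold change 0.52 ± 0.12, limma-trend adjusted p = 0.04). The actin regulator gene Coro1a (0.47 ± 0.11) and the cathepsin S gene Ctss (0.46 ± 0.11), whose product trims the invariant chain, were also in this set. The largest losses in reads were in the chemokines, Spp1 and Capg, an actin-capping protein, at 4111 and 2339.6 CPM on OP9 and 1732 and 1546 CPM on OP9-DLL1 (log2 fold change -0.92 ± 0.21, limma-trend adjusted p = 0.038), with the annexin Anxa2 at 3294 and 3212 CPM on OP9 and 2334 and 2358 CPM on OP9-DLL1 (log2 fold change -0.47 ± 0.10, limma-trend adjusted p = 0.028). With centred libraries the calls of Tgfbi, Taldo1, Coro1a and Ctss ended. Among named long noncoding RNAs Mirt1 was at 0.416 and 0.744 CPM on OP9 and 6.45 and 5.63 CPM on OP9-DLL1 (log2 fold change 3.41 ± 0.40, limma-trend adjusted p = 0.0022), and Bvht (2.42 ± 0.58) and Tnfsf13os (2.41 ± 0.40) also passed. Mirt1 passed with any 1 library left out. Tgfbi (0.25), Taldo1 (0.2), Coro1a (0.23), Ctss (0.29) and Capg (0.23) did not pass without OP9-DLL1 replicate 1 or 2 or without 1 of the cMoP libraries. Anxa2 (0.18) and Tnfsf13os (0.081) did not pass without OP9-DLL1 replicate 1 or 2, nor Anxa2 without 1 of the cMoP libraries. Itm2b (0.11) did not pass without OP9-DLL1 replicate 2. Bvht (0.19) did not pass without OP9 replicate 2 or OP9-DLL1 replicate 1 or 2 or without 1 of the cMoP libraries. Bvht (to 3.06) without OP9 replicate 1 moved by over 1.5-fold.

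In cMoPs, tested in the same fit with their own 4 libraries, 103 genes passed, 0.77% of those tested, of which 62 were higher and 41 lower. Of the 450 genes that rose in monocytes 45 also rose in cMoPs, which is 10% of the monocyte list and 72.6% of the cMoP list. Of the 405 that fell 27 also fell there, 6.67% and 65.9% of the lists. No gene passed in opposite directions, and 416 of the 450 and 319 of the 405 had the same sign in cMoPs. Hes1 rose in cMoPs as well, at 0.0453 and 0.0365 CPM on OP9 and 2.92 and 3.12 CPM on OP9-DLL1 (log2 fold change 5.94 ± 0.58, limma-trend adjusted p = 0.0015), and so did Cd22 (5.399 ± 0.45), F11r (3.86 ± 0.34) and Itgax (3.11 ± 0.37). Ccl2 (-2.70 ± 0.26), Spp1 (-2.70 ± 0.18) and C3ar1 (-2.33 ± 0.21) fell in both cell types. The 38 ribosome biogenesis genes that fell in monocytes included 0 that passed in cMoPs by limma-trend, where the list's median was -0.14.

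The difference of the responses was tested directly and passed for 7 genes, 0.0523% of those tested, with 1309 at an unadjusted p under 0.05. The response of Pecam1 was the larger in monocytes, by 2.33 ± 0.21, adjusted p = 0.0094, and in cMoPs Pecam1 was at 20.3 and 20.9 CPM on OP9 and 23.5 and 20.1 CPM on OP9-DLL1. The monocyte response was also the larger for Plac8 (difference 1.78 ± 0.14, adjusted p = 0.0052), which was at 1276 and 1281 CPM on OP9 and 1726 and 1629 CPM on OP9-DLL1 in cMoPs, and for Il21r (difference 1.92 ± 0.23, adjusted p = 0.03). Hmga1 (difference -1.34 ± 0.15, adjusted p = 0.025) and Gpatch4, a nucleolar protein (difference -1.54 ± 0.19, adjusted p = 0.03), fell in monocytes and did not pass in cMoPs, at -0.02 ± 0.11 and -0.26 ± 0.13. Spic also passed (difference -4.19 ± 0.46, adjusted p = 0.022) and was at 0 and 0 CPM on OP9 and 11.4 and 10 CPM on OP9-DLL1 in cMoPs. With 0 reads in both OP9 libraries of cMoPs, its fitted fold there and this difference depend on the 0.5 reads that the authors added. With log2(CPM + 1) the difference of Spic turned to 1.941 ± 0.2705 (limma-trend adjusted p = 0.027), and with voom weights it did not pass (adjusted p = 0.2042), so no direction is given for it. Pla2g7, the platelet-activating factor acetylhydrolase, rose in cMoPs (4.11 ± 0.25) and was at 1453 and 871 CPM on OP9 and 2364 and 1802 CPM on OP9-DLL1 in monocytes, where it did not pass (difference -3.23 ± 0.35, adjusted p = 0.022). The Pla2g7 log2 fold change in monocytes did pass with log2(CPM + 1) (limma-trend adjusted p = 0.0492), with voom weights (0.0374), with a replicate block (0.0359) and without OP9 replicate 1 (0.00734), and its difference did not pass with voom weights (adjusted p = 0.0692). Without the mean-variance trend none of the 7 passed, and 1 other gene did. Without any 1 of the 2 OP9-DLL1 monocyte libraries or of the 4 cMoP libraries 0 differences passed, and without OP9 monocyte replicate 2 1124 passed. For other genes, a call in monocytes and none in cMoPs is no test of a difference between them.

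**Figure D4:**
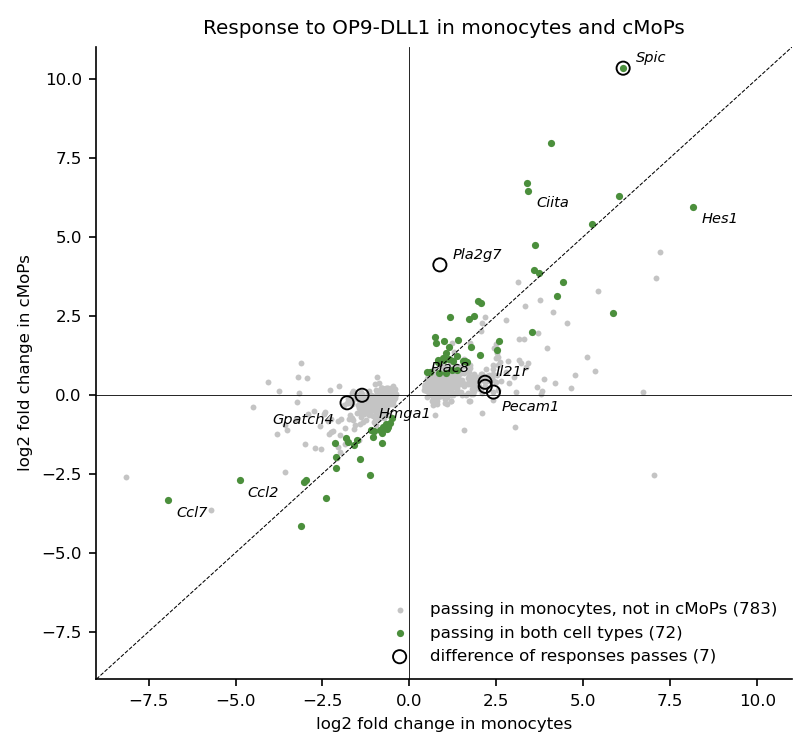
Each point is a gene that passed in monocytes, with its log2 fold change on OP9-DLL1 against OP9 in monocytes (horizontal) and in cMoPs (vertical), green where it passed in both, and circles mark the 7 genes whose difference of responses passed, including Pla2g7. Spic, whose cMoP fold rests on 0 reads on OP9 and whose side of the line turned with log2(CPM + 1), and Pla2g7 lie above the dashed line of equal response, and Pecam1, Plac8 and Il21r below it and near 0 in cMoPs.

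**Figure D5:**
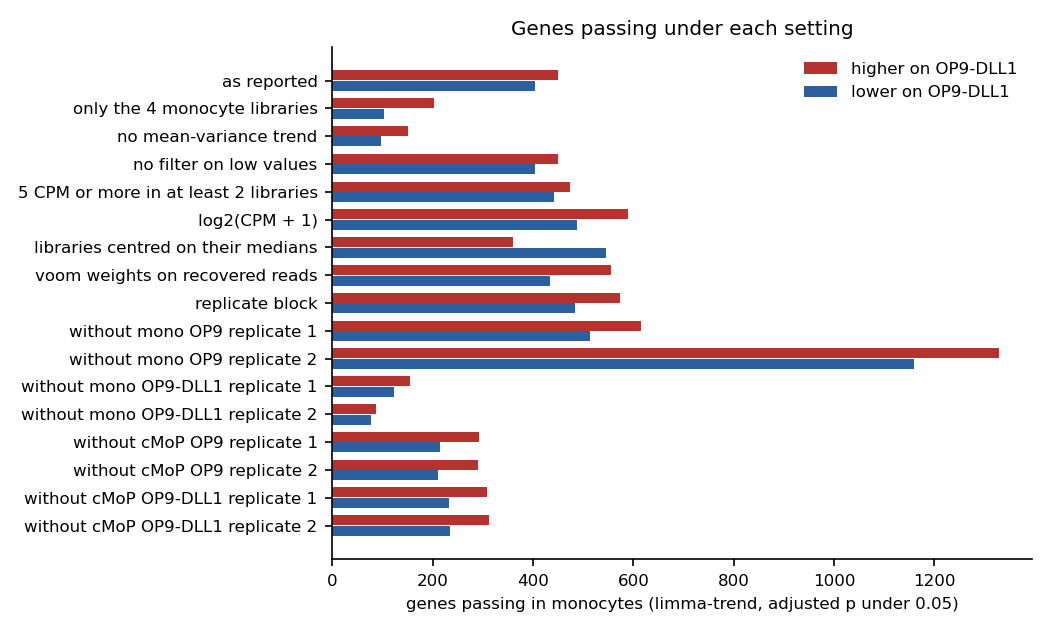
Bars give the number of genes that passed in monocytes under each setting, red for higher and blue for lower on OP9-DLL1. Counts run from 87 and 77 without OP9-DLL1 replicate 2 to 1328 and 1160 without OP9 replicate 2, against 450 and 405 as reported.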

How the data were processed

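RNA from 8 samples, 2 in each of 4 groups, was read on SMARTer Ultra Low libraries, which do not keep strand. The authors deposited 1 table of log2 CPM; per the submitters' processing notes the build was mm10 and the tools were limma, edgeR, STAR 2.7.9a, Salmon 1.5.2, featureCounts 2.0.3 of Subread, and bcl2fastq. The first row of each identifier was kept (42 repeats dropped). Every deposited log2 value was a whole number of reads plus 0.5 (100% within 0.001), which gave the printed CPM and depths of 47316323 to 62459962 reads. Genes that reached 1 CPM in 2 or more libraries were fitted with limma 3.58.1 in R 4.3.3 (limma-trend, 1 mean per group, all 8 libraries, 4 residual degrees of freedom), with Benjamini-Hochberg adjustment over 13374 genes and a threshold of 0.05. The code of the fit was run on simulated reads with the same dispersion in every gene and group. The real groups differ in spread, so that run lends no support to the calls here. The deposited fold changes and p-values were not used.

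Genes were named by rule: among passing genes at 5 CPM or more in the higher group, with predicted models left out, the 15 highest and 15 lowest log2 fold changes, the 10 highest and 10 lowest differences of CPM, up to 4 members of each list, genes under 1 CPM in one group and at 5 CPM or more in the other, 7 fixed genes, the genes whose difference of responses passed, and up to 3 noncoding RNAs a direction. The sets by fold change and by difference of CPM also required both libraries of 1 group to lie above both of the other. The comparison, the lists and this rule were chosen with earlier results of these data known. Positions are from GENCODE M21 (GRCm38). Alternatives were the 4 monocyte libraries alone, no trend, other filters, log2(CPM + 1), centred libraries, voom weights, a replicate block and each library left out. Intervals cover counting error only. Some genes are not reported here.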

Additional observations from a re-analysis of the deposited data

Results flagged for a closer look

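For 7 genes the response to OP9-DLL1 differed between monocytes and cMoPs by a limma-trend test of the difference itself, on the log2 scale and adjusted over 13374 genes. The monocyte response was above the cMoP response by 2.333 ± 0.214 (SE) for Pecam1, by 1.916 ± 0.233 for Il21r and by 1.784 ± 0.141 for Plac8. It was below it by a difference of -3.231 ± 0.351 for Pla2g7, -1.536 ± 0.185 for Gpatch4 and -1.343 ± 0.154 for Hmga1. Adjusted p-values from limma-trend ran from 0.00524 for Plac8 to 0.0298 for Il21r and Gpatch4. None of the 7 differences passed without either OP9-DLL1 monocyte library or without any cMoP library. For Spic the fitted difference was -4.188 ± 0.459, but it had 0 reads in both OP9 libraries of cMoPs, and with log2(CPM + 1) the difference turned to 1.941 ± 0.2705 (adjusted p = 0.027). Without the mean-variance trend none of the 7 passed (adjusted p 0.05815 for Spic to 0.2286 for Hmga1 and Gpatch4), and with voom weights Spic (0.2042) and Pla2g7 (0.0692) did not.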

How the results depend on the processing

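All 855 genes kept their sign under every setting run, and 72 of the higher and 38 of the lower ones passed in each. As reported, 450 genes were higher and 405 genes lower on OP9-DLL1 in monocytes, and 7 differed between cell types. With only the 4 monocyte libraries, which leave 2 residual degrees of freedom, 202 were higher and 104 lower. Without the mean-variance trend these counts were 151 and 97, with 1 difference, which was none of the 7, and with log2(CPM + 1) 24 differences passed. With centred libraries 361 were higher and 545 lower, with voom weights 555 and 433, and the cause of the latter was not tested. Deviations of same-numbered libraries from their group means were weakly correlated over the genes (0.0227 to 0.0891). This cannot tell whether same-numbered samples shared mice, a day or a batch, and the labels do not say. A replicate block gave 574 higher, 484 lower and 11 differences. Leaving out 1 library at a time gave 87 to 1328 higher, 77 to 1160 lower and 0 to 1124 differences, and where a group kept 1 library, that library was assumed to vary like the others. Of 186 named genes that passed, 63 passed under every setting and none changed sign. Among named genes that did not pass, leaving out 1 library gave log2 fold changes of -0.003126 to 0.6545 for Bcl6, -0.3022 to 0.0742 for Irf2 and -0.364 to 0.02218 for Notch1, and Nr4a1 passed with voom weights and without either cMoP OP9 library. With 2 libraries a group, changes in scarce genes are limited by depth and spread: the median standard error was 0.492 in the lowest and 0.14 in the highest of 4 bins of level.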

Other observations

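Genes outside the lists also passed under every setting run, and those given here were chosen after their values were seen. Cd1d1, which presents lipids to natural killer T cells, was at 20.6 and 14.7 CPM on OP9 and 124 and 83.3 CPM on OP9-DLL1 (log2 fold change 2.55 ± 0.25, limma-trend adjusted p = 0.00097). Ptprc, the leukocyte phosphatase CD45, was at 517 and 461 CPM on OP9 and 951 and 899.7 CPM on OP9-DLL1 (log2 fold change 0.92 ± 0.11, limma-trend adjusted p = 0.0022), and Sla, an adaptor that damps receptor signals, at 67.6 and 65.6 CPM on OP9 and 201 and 186 CPM on OP9-DLL1 (log2 fold change 1.54 ± 0.12, limma-trend adjusted p = 0.0003). The cyclic AMP phosphodiesterase gene Pde4b was at 57.7 and 53.1 CPM on OP9 and 132 and 126 CPM on OP9-DLL1 (log2 fold change 1.22 ± 0.14, limma-trend adjusted p = 0.0016), and the sorting receptor gene Sorl1 at 85.9 and 80.4 CPM on OP9 and 225 and 233 CPM on OP9-DLL1 (log2 fold change 1.46 ± 0.14, limma-trend adjusted p = 0.00099). In each of these 5 genes, as in every gene that rose, both OP9-DLL1 libraries lay above both OP9 libraries.

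Among the falls, the arginine methyltransferase gene Prmt5 was at 72.1 and 74.5 CPM on OP9 and 40.4 and 39.6 CPM on OP9-DLL1 (log2 fold change -0.87 ± 0.11, limma-trend adjusted p = 0.0027), and Plec, the cytoskeletal linker plectin, at 771 and 840.4 CPM on OP9 and 406 and 349 CPM on OP9-DLL1 (log2 fold change -1.09 ± 0.14, limma-trend adjusted p = 0.0035). Atic, which completes purine synthesis, was at 130.3 and 148 CPM on OP9 and 62.9 and 68.6 CPM on OP9-DLL1 (log2 fold change -1.08 ± 0.12, limma-trend adjusted p = 0.002), and Mettl1, a tRNA methyltransferase, at 83.9 and 68.1 CPM on OP9 and 26.2 and 31 CPM on OP9-DLL1 (log2 fold change -1.41 ± 0.14, limma-trend adjusted p = 0.0012). The potassium channel gene Kcnk13 was at 4.57 and 5.28 CPM on OP9 and 0.965 and 0.97 CPM on OP9-DLL1 (log2 fold change -2.33 ± 0.27, limma-trend adjusted p = 0.002).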
